A study of Homo sapiens with 36 samples.

Results

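The genes described here are 9 established direct transcriptional targets of the tumour suppressor p53: CDKN1A, MDM2, GDF15, BBC3, BAX, FAS, TP53I3, TP53INP1 and RRM2B. They were taken by symbol from the mRNA count table, which lists 60591 genes, and all 9 were found in it. Their transcripts were followed in Caco-2 and HT-29, human cell lines from colorectal tumours, exposed to agents that imitate hypoxia. FAS held 0 counts in every Caco-2 library, so that 8 of the 9 genes passed the filter on low counts in Caco-2 and all 9 passed in HT-29.

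Each line was divided into 3 groups of 3 biological replicates. Cells received CoCl2 at 300 µM for 24 h or an oxyquinoline derivative (OD, code 4896-3212) at 5 µM for 24 h. Control cells received dimethyl sulfoxide (DMSO), which the labels list at the same dose for OD. CoCl2 and OD both serve to inhibit the HIF prolyl hydroxylases, which send hypoxia-inducible factor (HIF) to degradation. A differentiation of 21 days came before treatment in Caco-2, so in every comparison between the lines the line and the culture state cannot be told apart. The labels and the study's methods differ on whether CoCl2 medium also held DMSO, and a solvent difference between CoCl2 and control cannot be told apart from CoCl2.

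p53 is a transcription factor that is kept scarce by the ubiquitin ligase MDM2 and accumulates when DNA is damaged or the cell is stressed. Its targets stop the cell cycle, repair DNA, limit oxidative stress or start apoptosis, and MDM2 itself is a target, which closes a feedback loop. Several of these genes also answer to other factors. CDKN1A and GDF15, for example, are known to be induced in hypoxia or in the integrated stress response without p53. Caco-2 and HT-29 are both known to carry a mutated p53 that lacks normal function, which is background for all the values below.

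The mRNA libraries held from 12925719 to 22332639 counts. Replicate libraries of a group differed by more than counting error in all 18 pairs (chi-square over its degrees of freedom 1.86 to 11.4). All 7 intestinal epithelial markers were at or above 1 CPM (counts scaled to 1000000 per library) in every library of both lines. Of 7 markers of other cell types, 2 reached that level in every Caco-2 library and 1 in every HT-29 library. The 6 markers of differentiated Caco-2 cells summed to between 3708 and 5297 CPM in Caco-2 and to between 143 and 211 CPM in HT-29. The 2 markers listed for HT-29, CEACAM5 and CEACAM6, summed to 75.2 to 263 CPM in Caco-2 and 23.4 to 200 CPM in HT-29. These 2 did not set HT-29 apart from Caco-2. The scaling factors of the trimmed mean of M values (TMM) differed by group, from a mean of 1.19 in HT-29 control libraries to 0.770 with CoCl2. Without them, changes shifted by a median over genes of -0.63 (log2) for CoCl2 in HT-29, -0.32 for CoCl2 in Caco-2, -0.15 for OD in Caco-2 and -0.14 for OD in HT-29. Fold changes below are relative to the bulk of transcripts, and in bulk RNA a smaller share of cells with a transcript and less transcript per cell cannot be told apart.

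Of the 9 genes, 7 have a promoter entry in RefSeq (GRCh38.p14), where a promoter covers 250 bases before and 50 bases after the start of a transcript. Motifs were searched on both strands of these windows. Shares of all promoters count single windows, whereas a gene was counted when any of its windows matched. MDM2 and FAS have several windows, not all of which matched, so the gene counts are not on the scale of the shares. The HIF core letters ACGTG were in 21.4% of all 35116 promoters and in promoters of 4 of the 7 genes (BAX, BBC3, FAS and MDM2). The NRF2 element TGACNNNGC was in 13.3% of all promoters and in those of BAX, FAS, MDM2 and TP53I3. TGATGNAA, the composite of ATF4 and CEBP, was in 3.62% of all promoters and in none of the 7. The decamer of the p53 consensus was in 6.63% of all promoters and, among the 7, only in a window of FAS. Only exact matches were counted, so a p53 element that departs from the consensus would be missed by this search. A match of letters describes the window and is neither a site nor a cause.

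Stretches upstream of 3 of the genes are shown, CDKN1A, MDM2 and BAX. Of the genes with a window on the plus strand, these held a long enough run of bases outside annotated exons. With CoCl2, CDKN1A and MDM2 rose in both lines, whereas BAX fell in Caco-2. Only bases outside annotated exons are printed, 5′ to 3′ on the plus strand of GRCh38.p14. Capitals mark ACGTG on either strand and TGACNNNGC, and inexact p53 elements are not marked. The CDKN1A stretch (chr6:36678560-36678709) has neither. The MDM2 stretch (chr12:68808767-68809001) lies before a downstream start site of the gene and has 1 place of each. The stretches before the upstream start sites of MDM2, not printed, have neither. The BAX stretch (chr19:48954625-48954814) has ACGTG at 2 places, each as the palindrome CACGTG, and the second runs into TGACNNNGC.
CDKN1A: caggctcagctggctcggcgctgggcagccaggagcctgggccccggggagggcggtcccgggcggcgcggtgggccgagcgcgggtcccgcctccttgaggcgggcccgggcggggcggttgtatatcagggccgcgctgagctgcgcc
MDM2: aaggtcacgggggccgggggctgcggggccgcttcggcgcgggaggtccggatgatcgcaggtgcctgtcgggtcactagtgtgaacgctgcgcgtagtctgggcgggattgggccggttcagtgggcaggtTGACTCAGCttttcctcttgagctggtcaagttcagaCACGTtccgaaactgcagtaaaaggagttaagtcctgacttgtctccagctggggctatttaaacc
BAX: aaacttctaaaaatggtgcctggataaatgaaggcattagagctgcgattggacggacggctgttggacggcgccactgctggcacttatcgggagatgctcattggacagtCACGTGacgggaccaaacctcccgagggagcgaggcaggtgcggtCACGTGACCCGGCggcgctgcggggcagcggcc

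The 9 targets did not move as a block in either line. CDKN1A and GDF15 rose with both agents in both lines. A gene is written here as risen or fallen where edgeR's quasi-likelihood F test gave a Benjamini-Hochberg adjusted p (FDR) under 0.05 over all genes of the line, and as called where the absolute log2 fold change was also over 1. With CoCl2 in Caco-2, 4 of the 8 genes tested rose and 4 fell, beside 31.6% and 33.1% of all genes. Of these, 4 were called, beside 23.4% of all genes. With OD in Caco-2, 4 rose, 2 fell and 2 did not pass the test, beside 25.7% and 24.7% of all genes, and 1 was called, beside 11.7% of all genes.

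In HT-29 with CoCl2, 5 of the 9 genes rose and 2 fell, beside 40.7% and 42.2% of all genes, and 5 were called, beside 41.3% of all genes. With OD, 5 rose and 2 fell, beside 34.7% and 34.0% of all genes, and 3 were called, beside 17.1% of all genes. Medians of the log2 fold change over the genes tested were 0.094 (CoCl2) and 0.40 (OD) for Caco-2 and 0.60 (CoCl2) and 0.32 (OD) for HT-29, while the median over all genes lay between -0.032 and 0.0057. CoCl2 and OD share their control libraries within a line. These medians hide opposite movements of single genes, which are given next by role.

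**Figure D1:**
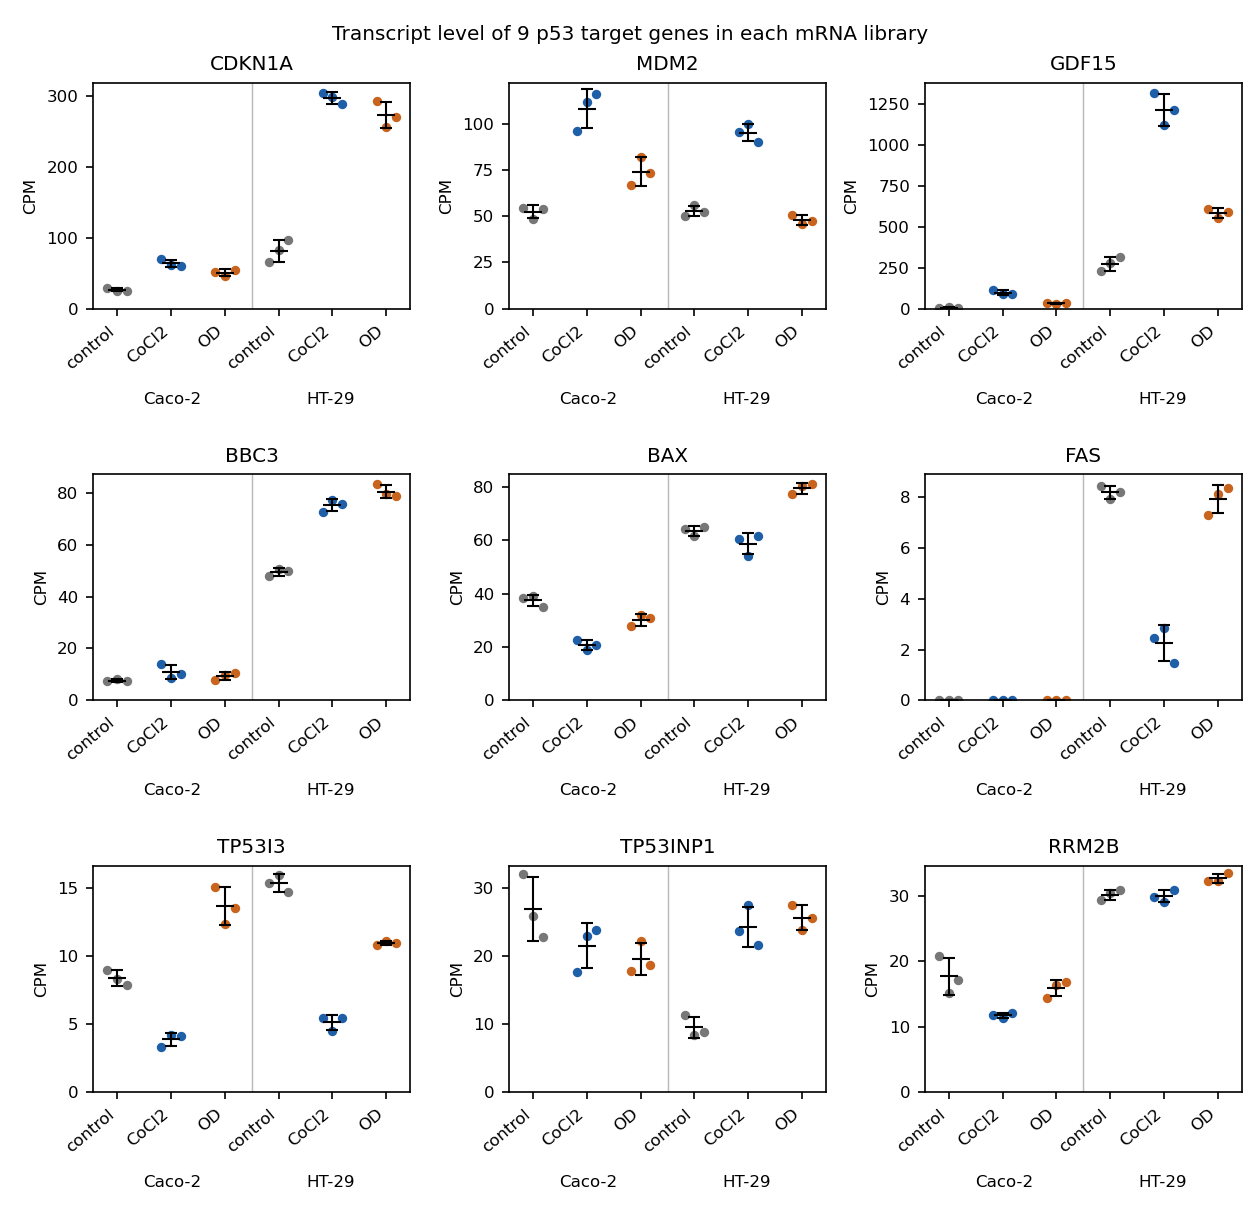
Transcript level in CPM (linear axis from 0, TMM-scaled within each line) of the 9 p53 target genes in each mRNA library, with 1 point per library, a horizontal bar for the mean and whiskers for the SD of 3 libraries. CDKN1A and GDF15 lie above control in every treated library of both lines, FAS is at 0 in all Caco-2 libraries, and TP53I3 falls with CoCl2 in both lines.

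CDKN1A encodes p21, the inhibitor of cyclin-dependent kinases that arrests the cell cycle (ENSG00000124762.14, chr6:36676460-36687337, plus strand). In Caco-2 it stood at 29.0, 25.5 and 25.4 CPM in the control libraries, at 70.0, 61.2 and 60.7 CPM with CoCl2 and at 52.2, 46.0 and 54.9 CPM with OD. All treated libraries were above all controls. Relative to control this was a log2 fold change of 1.26 ± 0.0949 (SE) with CoCl2 (FDR = 3.28e-11), and OD gave 0.93 ± 0.0954 (FDR = 1.71e-08). The OD change was just under the fold limit and passed it, at 1.00 and 1.01, without control replicate 1 or OD replicate 2. With library size alone as the scale, the CoCl2 change was 0.94, still past the test but not called.

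In HT-29 the CDKN1A level was 65.4, 83.5 and 96.4 CPM in control libraries, 305.2, 298.8 and 289.5 CPM with CoCl2 and 293.6, 256.4 and 270.9 CPM with OD. Again no treated library overlapped the controls. As a log2 fold change this was 1.85 ± 0.0809 with CoCl2 (FDR = 1.43e-17), against 1.73 ± 0.0803 with OD (FDR = 2.35e-16), and the CoCl2 change was 1.22 with library size alone. The agents were not distinguished in HT-29, with a log2 difference of 0.12 (95% interval -0.035 to 0.28, FDR = 0.145), although that difference was -0.37 (FDR = 4.40e-05) with library size alone. In Caco-2 the CoCl2 level was above that with OD by 0.32 on the log2 scale (FDR = 0.00454), which did not pass with library size alone (0.16, FDR = 0.162).

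p21 is known to switch off cell cycle genes through the DREAM repressor complex, and 12 of these genes were read beside CDKN1A. In HT-29 with CoCl2, 11 of 12 fell and 1 rose, beside 42.2% and 40.7% of all genes. The median log2 fold change was -1.45, and 8 were called lower, beside 23.9% of all genes called lower. CDC25C, a phosphatase that starts mitosis, fell from 34.2 ± 2.49 to 7.15 ± 0.511 CPM (SD, n = 3), and the mitotic cyclin CCNB2 fell from 148.6 ± 3.13 to 43.4 ± 2.81 CPM. With OD in HT-29, 9 fell and 2 rose, beside 34.0% and 34.7% of all genes. The median was -0.66, and 3 were called lower, beside 7.57% of all genes. CCNB1, another mitotic cyclin, went from 196.5 ± 8.23 to 74.1 ± 1.12 CPM. In Caco-2, where CDKN1A rose as well, 1 of the 12 rose and 3 fell with CoCl2, beside 31.6% and 33.1% of all genes. The median there was -0.073. With OD in Caco-2, 4 rose and 4 fell, beside 25.7% and 24.7% of all genes, with a median of 0.11. MYBL2, a cell cycle transcription factor, rose in Caco-2 with OD from 111.8 ± 3.91 to 341.4 ± 15.7 CPM, whereas CCNB1 fell from 121.0 ± 8.68 to 59.0 ± 1.96 CPM. In the test of the difference between the lines, 11 of the 12 passed lower in HT-29 with CoCl2 and 10 with OD, beside 28.6% and 22.0% of all genes.

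MDM2 encodes the ubiquitin ligase that removes p53 (ENSG00000135679.27, chr12:68808177-68845544, plus strand). Caco-2 control libraries held 54.5, 48.4 and 54.1 CPM, CoCl2 libraries 96.1, 111.6 and 116.2 CPM and OD libraries 66.8, 82.1 and 73.2 CPM. Both treated groups were clear of control and of each other. The fitted log2 fold change was 1.05 ± 0.0910 with CoCl2 (FDR = 4.24e-10), against 0.50 ± 0.0915 with OD (FDR = 7.25e-05). The CoCl2 change lay at the fold limit: it was 0.99 without CoCl2 replicate 3 and also without control replicate 2, 0.85 with limma on the deposited log2 values and 0.73 with library size alone, all past the test.

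In HT-29 the agents parted on MDM2. The level was 50.1, 55.9 and 52.3 CPM in control, 95.5, 99.6 and 90.2 CPM with CoCl2 and 50.8, 45.6 and 47.1 CPM with OD. CoCl2 libraries were all above control, and OD libraries overlapped it. Against control, the log2 fold change came to 0.85 ± 0.0561 with CoCl2 (FDR = 1.25e-13), and to -0.14 ± 0.0578 with OD (FDR = 0.0334). This small fall with OD did not pass under 6 of the alternatives tried, among them without HT-29 control replicate 2 (-0.10, FDR = 0.168) and without OD replicate 2 or 3 (-0.10, FDR = 0.172, and -0.13, FDR = 0.112). The direct test of CoCl2 against OD gave a log2 difference of 0.99 ± 0.0569 (FDR = 1.08e-14), which passed the fold limit without CoCl2 replicate 3 (1.03) and without OD replicate 1 (1.04). With library size alone the MDM2 difference between the agents was 0.50 and the rise with CoCl2 was 0.22, both still past the test. MDM2 exons overlap those of CPM, a carboxypeptidase gene on the opposite strand with 4 to 1138 counts per library, and the use of strand in the counting is not given in the sources used here.

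GDF15 is a secreted stress cytokine of the TGF-beta family (ENSG00000130513.7, chr19:18374731-18389176, plus strand), and it showed the highest fold changes of the 9 genes in Caco-2. The level was 6.29, 7.78 and 7.06 CPM in Caco-2 control, 113.8, 88.4 and 88.6 CPM with CoCl2 and 34.6, 28.3 and 31.8 CPM with OD. The 3 groups were fully separated. On the log2 scale the change was 3.78 ± 0.124 with CoCl2 (13.8-fold, FDR = 3.79e-18) and 2.17 ± 0.128 with OD (4.49-fold, FDR = 1.03e-12). CoCl2 exceeded OD by 1.62 ± 0.105 on the log2 scale (FDR = 8.28e-12).

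HT-29 cells started from a far higher GDF15 level, with 228.5, 277.3 and 314.0 CPM in control, and reached 1312.6, 1116.7 and 1207.9 CPM with CoCl2 and 608.7, 550.5 and 591.0 CPM with OD. The order of the groups was the same as in Caco-2, without overlap. The log2 fold change was 2.15 ± 0.0752 with CoCl2 (4.43-fold, FDR = 1.15e-19) and 1.09 ± 0.0735 with OD (2.13-fold, FDR = 5.76e-13). The OD change dropped under the fold limit without HT-29 control replicate 1 (0.98) and with library size alone (0.95). CoCl2 exceeded OD by 1.06 ± 0.0725 (FDR = 4.80e-13), close to the fold limit, and this was 0.999 without CoCl2 replicate 1, 0.96 with all 18 libraries in 1 fit, 0.98 with limma and 0.56 with library size alone.

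BBC3 encodes PUMA, a BH3-only protein that promotes apoptosis (ENSG00000105327.18, chr19:47220822-47232766, minus strand). It was low in Caco-2, at 7.45, 8.12 and 7.27 CPM in control, 13.9, 8.50 and 10.3 CPM with CoCl2 and 7.80, 9.85 and 10.6 CPM with OD. The CoCl2 libraries were above control by a narrow margin and the OD libraries overlapped it. Relative to control this was a log2 fold change of 0.51 ± 0.167 with CoCl2 (FDR = 0.0105), against 0.31 ± 0.168 with OD (FDR = 0.133). The rise with CoCl2 did not pass without CoCl2 replicate 1 (0.32, FDR = 0.0927) or with library size alone (0.19, FDR = 0.353), whereas the value with OD passed without OD replicate 1 (0.42, FDR = 0.0480).

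HT-29 libraries held 47.8, 50.8 and 50.0 CPM of BBC3 in control, 72.6, 77.1 and 75.9 CPM with CoCl2 and 83.4, 79.5 and 78.6 CPM with OD. Treated and control libraries did not overlap. As a log2 fold change this was 0.60 ± 0.0520 with CoCl2 (FDR = 3.69e-11), against 0.70 ± 0.0504 with OD (FDR = 2.21e-12). The CoCl2 value depended on the scale, since it was -0.032 (FDR = 0.563) with library size alone.

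BAX is the effector that opens the outer mitochondrial membrane in apoptosis (ENSG00000087088.21, chr19:48954815-48961798, plus strand). In Caco-2 it stood at 38.4, 39.0 and 35.1 CPM in control, 22.6, 19.0 and 20.9 CPM with CoCl2 and 27.8, 32.0 and 30.8 CPM with OD. Every treated library was below every control. The fitted log2 fold change was -0.85 ± 0.100 with CoCl2 (FDR = 7.58e-08), which came to -1.17 with library size alone, and -0.31 ± 0.0971 with OD (FDR = 0.0100).

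BAX in HT-29 was at 64.4, 61.5 and 65.0 CPM in control, 60.3, 54.2 and 61.8 CPM with CoCl2 and 77.2, 80.4 and 81.2 CPM with OD. The CoCl2 libraries overlapped control and the OD libraries were above it. Against control, the log2 fold change came to -0.12 ± 0.0553 with CoCl2 (FDR = 0.0530), and to 0.32 ± 0.0523 with OD (FDR = 5.16e-06). The CoCl2 value sat at the edge of the test and passed it, as a fall, under 6 alternatives, among them without CoCl2 replicate 3 (-0.15, FDR = 0.0347), without control replicate 2 (-0.15, FDR = 0.0344) and with library size alone (-0.75, FDR = 1.66e-12). With library size alone the OD change was 0.19, still past the test, and the difference of CoCl2 from OD was -0.94.

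FAS encodes the death receptor that binds FAS ligand at the cell surface (ENSG00000026103.25, chr10:88953813-89029605, plus strand). Caco-2 held 0 counts in all 9 libraries, which at 3 counts per library allows up to 0.250 CPM on the scale of this line (counting error only). HT-29 held 8.46, 7.93 and 8.22 CPM in control, 2.46, 2.83 and 1.48 CPM with CoCl2 and 7.30, 8.15 and 8.35 CPM with OD. The CoCl2 libraries, with 18 to 41 counts each, were all below control, and the OD libraries overlapped it. On the log2 scale the change was -1.83 ± 0.163 with CoCl2 (FDR = 6.50e-11) and -0.049 ± 0.119 with OD (95% interval -0.29 to 0.20, FDR = 0.732). CoCl2 was below OD by -1.78 ± 0.165 (FDR = 2.01e-10). On the log2(RPKM + 1) scale of the deposited table, which understates low genes, the change with CoCl2 was -0.86. FAS exons overlap those of STAMBPL1 on the same strand (19 to 1204 counts per library).

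TP53I3, also known as PIG3, encodes a quinone oxidoreductase (ENSG00000115129.14, chr2:24077433-24085861, minus strand), and it moved in opposite directions with the agents in Caco-2. Its level was 8.96, 8.32 and 7.82 CPM in control, 3.33, 4.21 and 4.11 CPM with CoCl2 and 15.1, 12.3 and 13.5 CPM with OD. The groups were separated, with CoCl2 below control and OD above it. The log2 fold change was -1.10 ± 0.162 with CoCl2 (FDR = 2.29e-06; -0.82 with limma on the deposited log2 values) and 0.70 ± 0.139 with OD (FDR = 0.000189). The log2 difference between CoCl2 and OD was -1.80 ± 0.155 (FDR = 1.09e-09). Caco-2 CoCl2 libraries held only 40 to 76 counts of TP53I3. TP53I3 exons overlap those of FAM228B on the opposite strand (10 to 53 counts per library).

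In HT-29 TP53I3 was at 15.4, 16.0 and 14.7 CPM in control, 5.45, 4.49 and 5.43 CPM with CoCl2 and 10.8, 11.1 and 10.9 CPM with OD. Here both treated groups lay below control. Relative to control this was a log2 fold change of -1.58 ± 0.109 with CoCl2 (FDR = 3.38e-13), against -0.48 ± 0.0891 with OD (FDR = 3.10e-05), and CoCl2 was below OD by -1.10 ± 0.115 (FDR = 2.35e-09).

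TP53INP1 encodes a stress protein linked to autophagy and to p53 phosphorylation (ENSG00000164938.14, chr8:94925972-94949378, minus strand). Caco-2 libraries held 32.1, 25.9 and 22.9 CPM in control, 17.7, 23.0 and 23.9 CPM with CoCl2 and 17.9, 22.3 and 18.7 CPM with OD. CoCl2 libraries overlapped control and OD libraries lay just below it. As a log2 fold change this was -0.32 ± 0.130 with CoCl2 (FDR = 0.0348), against -0.46 ± 0.131 with OD (FDR = 0.00516). Neither fall passed without control replicate 1, when the changes were -0.17 (FDR = 0.291) and -0.31 (FDR = 0.0739) with CoCl2 and OD. The CoCl2 change also did not pass without CoCl2 replicate 1 (-0.20, FDR = 0.179), or with DESeq2 and all libraries kept (-0.31, FDR = 0.0867), and it was -0.64 with library size alone.

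HT-29 libraries held 11.3, 8.48 and 8.82 CPM of TP53INP1 in control, 23.7, 27.5 and 21.7 CPM with CoCl2 and 27.5, 23.9 and 25.6 CPM with OD. Both treated groups were clear of control. The fitted log2 fold change was 1.37 ± 0.104 with CoCl2 (FDR = 2.24e-12), or 0.74 with library size alone and 0.91 with limma, and 1.45 ± 0.0991 with OD (FDR = 7.68e-13). The agents were not distinguished, with a log2 difference of -0.075 (95% interval -0.26 to 0.11, FDR = 0.454), which was -0.57 with library size alone. TP53INP1 exons overlap those of NDUFAF6 on the opposite strand (54 to 293 counts per library).

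RRM2B encodes p53R2, a ribonucleotide reductase subunit that supplies nucleotides for repair and for mitochondrial DNA (ENSG00000048392.13, chr8:102204502-102238961, minus strand). In Caco-2 its level was 20.8, 15.2 and 17.2 CPM in control, 11.8, 11.3 and 12.1 CPM with CoCl2 and 14.5, 16.5 and 16.8 CPM with OD. CoCl2 libraries lay below control and OD libraries overlapped it. Against control, the log2 fold change came to -0.60 ± 0.129 with CoCl2 (FDR = 0.000278), and OD gave -0.16 ± 0.124 (FDR = 0.293). With library size alone these were -0.92 and -0.31, and the OD value then passed the test (FDR = 0.0476). HT-29 control, CoCl2 and OD libraries ranged from 29.4 to 30.9, 29.1 to 30.9 and 32.3 to 33.5 CPM. The log2 fold changes were -0.017 (95% interval -0.15 to 0.11, FDR = 0.801) with CoCl2 and 0.11 (-0.010 to 0.23, FDR = 0.0964) with OD, and the first was -0.65 (FDR = 2.97e-10) with library size alone.

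**Figure D2:**
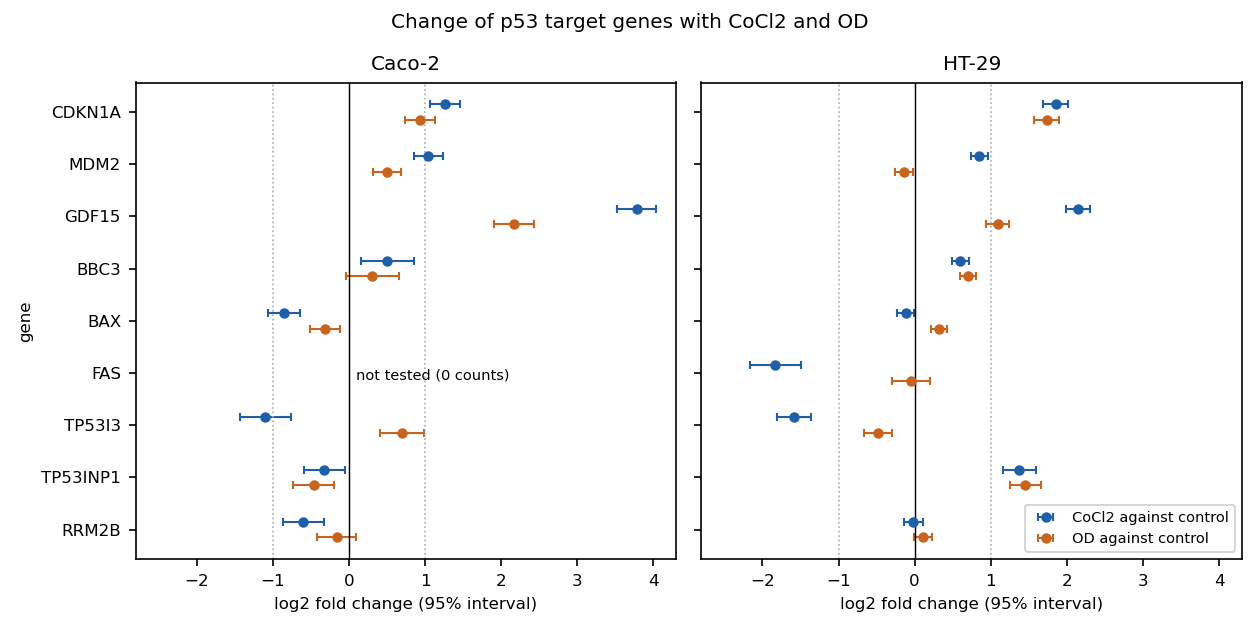
Log2 fold change against control (points) with 95% intervals (whiskers) of the 9 genes in Caco-2 (left) and HT-29 (right), for CoCl2 (blue) and OD (orange), with dotted lines at the fold limit of 1. CDKN1A and GDF15 lie to the right of 0 throughout, TP53I3 in Caco-2 has CoCl2 at -1.10 and OD at 0.70, and BBC3 in HT-29 with CoCl2, at 0.60 here, is -0.032 with library size alone.

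Compared per length, the order of the 9 transcripts changed with treatment. The scale here is RPKM, reads scaled to transcript length and library size, from the deposited log2 table. In control Caco-2 cells BAX was highest (14.8 ± 0.839 RPKM, SD, n = 3), followed by CDKN1A (9.07 ± 0.702 RPKM). TP53INP1, MDM2, TP53I3, GDF15 and RRM2B followed between 4.88 and 3.35 RPKM with overlapping neighbours, then BBC3 at 2.44 RPKM, and FAS was listed at 0. With CoCl2 GDF15 led in Caco-2 at 46.1 ± 7.13 RPKM, ahead of CDKN1A at 21.2 ± 1.81 RPKM, and BAX (7.99 RPKM) and MDM2 (7.97 RPKM) did not differ beyond their spread. With OD CDKN1A (17.0 RPKM) and GDF15 (15.1 RPKM) overlapped at the top.

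In HT-29 GDF15 was the most abundant of the 9 in all groups, at 135.0 ± 21.1 RPKM in control, 562.0 ± 46.7 RPKM with CoCl2 and 283.5 ± 14.1 RPKM with OD. CDKN1A (28.1 ± 5.35 RPKM) and BAX (25.4 ± 0.701 RPKM) overlapped in control. With the agents CDKN1A stood apart from BAX, at 96.2 RPKM with CoCl2 and 92.6 RPKM with OD against 22.0 and 31.2 RPKM for BAX. The lowest in HT-29 control were TP53INP1 (1.74 RPKM) and FAS (1.52 RPKM), whose ranges overlapped, and FAS was lowest in every group, at 0.392 RPKM with CoCl2.

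Untreated cells of the lines were compared on a common scale over all 18 libraries. Of the 8 genes with counts in both lines, 6 were higher in HT-29 control than in Caco-2 control, 1 was lower and 1 did not pass, and 4 of the 8 were called, beside 39.5% of all genes higher, 39.6% lower and 45.8% called. GDF15 was at 286.0 ± 47.4 CPM in HT-29 against 6.92 ± 0.729 CPM in Caco-2 (log2 difference 5.37 ± 0.128, FDR = 2.68e-28). BBC3 was at 51.8 ± 1.98 against 7.48 ± 0.426 CPM (log2 difference 2.79 ± 0.109, FDR = 4.91e-22), and CDKN1A at 85.6 ± 17.1 against 26.2 ± 2.00 CPM (1.71 ± 0.102, FDR = 6.94e-17). Control libraries of the lines did not overlap for these 3 genes, nor for BAX, TP53I3, TP53INP1 and RRM2B, and they overlapped for MDM2. The share of all genes without such overlap is not given here.

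BAX, TP53I3 and RRM2B were higher in HT-29 by 0.85, 0.96 and 0.86 on the log2 scale, under the fold limit, although TP53I3 reached 1.01 without Caco-2 control replicate 1. TP53INP1 went the other way, with 9.96 ± 1.53 CPM in HT-29 against 26.5 ± 4.60 CPM in Caco-2 (log2 difference -1.43 ± 0.129, FDR = 4.54e-12). MDM2 stood at 55.2 ± 3.24 CPM in HT-29 and 51.4 ± 3.45 CPM in Caco-2 (log2 difference 0.10, 95% interval -0.063 to 0.27, FDR = 0.248). FAS stood at 8.57 ± 0.256 CPM in HT-29 control, and its lowest library there was at least 40.5-fold higher than 3 counts per Caco-2 control library (at most 0.204 CPM on this common scale).

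**Figure D3:**
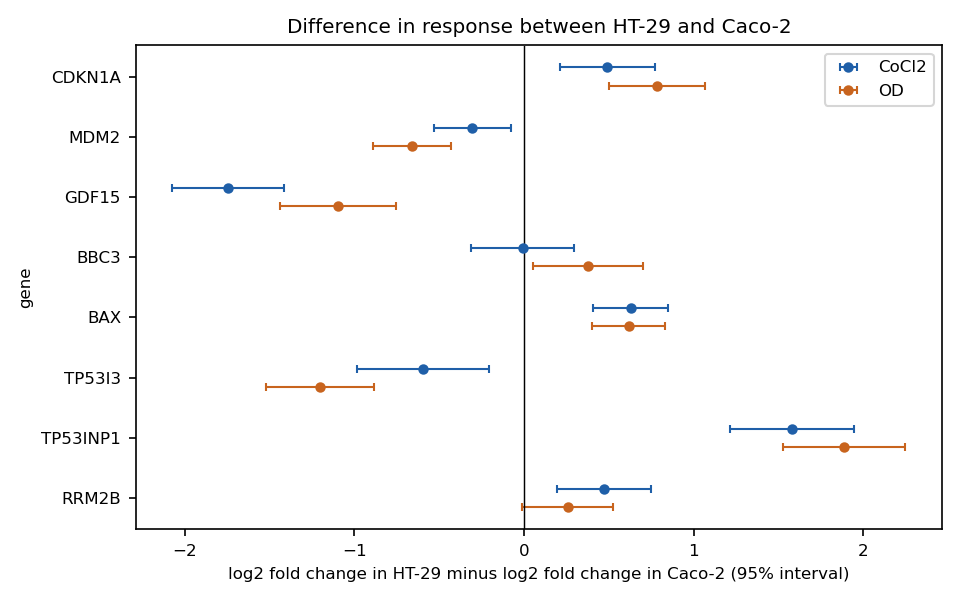
Difference of responses between the lines, as the log2 fold change in HT-29 minus that in Caco-2 (points) with 95% intervals (whiskers), for CoCl2 (blue) and OD (orange) and the 8 genes with counts in both lines. TP53INP1 lies furthest to the right (1.58 and 1.89), GDF15 furthest to the left with CoCl2 (-1.74) and TP53I3 with OD (-1.20).

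The responses themselves were compared between the lines with an interaction test over 18 libraries, for the 8 genes with counts in both. For CoCl2, 4 genes responded more positively in HT-29, 3 less, and 1 did not pass, and 2 were called, beside 21.1% and 28.6% of all genes in these directions and 21.6% called. For OD, 3 were more positive, 3 less and 2 did not pass, and 3 were called, beside 20.9% and 22.0% of all genes in these directions and 15.2% called. TP53INP1, which rose in HT-29 and not in Caco-2, differed by 1.58 ± 0.179 with CoCl2 (FDR = 4.27e-09) and by 1.89 ± 0.177 with OD (FDR = 1.02e-10).

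The GDF15 response in HT-29, where its control level was higher, differed from that in Caco-2 by -1.74 ± 0.162 with CoCl2 (FDR = 5.14e-11) and by -1.09 ± 0.168 with OD (FDR = 1.99e-06), the latter -0.98 without HT-29 control replicate 3. TP53I3 differed by -1.20 ± 0.156 with OD (FDR = 1.05e-07), having risen in Caco-2 and fallen in HT-29. BAX differed by 0.63 ± 0.109 with CoCl2 and 0.62 ± 0.105 with OD (FDR = 1.06e-05 and 1.02e-05). For BBC3 no difference was detected with CoCl2, at -0.0073 (95% interval -0.31 to 0.30, FDR = 0.998). Its difference with OD, 0.38 (0.055 to 0.70), just missed the threshold (FDR = 0.0536). The OD difference passed under some alternatives. Among them were DESeq2 (0.39, FDR = 0.0393), library size alone (0.41, FDR = 0.0400) and the fit without Caco-2 OD replicate 3 (0.46, FDR = 0.0263).

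Within each line, CoCl2 against OD separated the genes further. In Caco-2, 3 of 8 were higher with CoCl2 and 3 lower, beside 24.4% and 25.2% of all genes, and 2 were called, beside 11.7% of all genes. In HT-29, 2 of 9 were higher and 3 lower, beside 37.1% and 40.6% of all genes, and 3 were called, beside 29.9% of all genes. BBC3 (-0.099, FDR = 0.0751) and RRM2B (-0.13, FDR = 0.0620) just missed the test in HT-29. Both passed it as lower under some alternatives, among them library size alone and limma on the deposited log2 values. MDM2 and GDF15 were higher with CoCl2 than with OD in both lines, and BAX and TP53I3 were lower. The log2 difference for BAX was -0.54 ± 0.102 in Caco-2 (FDR = 9.93e-05) and -0.44 ± 0.0546 in HT-29 (FDR = 5.06e-08).

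A wider list of 26 other established p53 targets moved in both directions as well. In Caco-2, 9 of 25 tested rose and 5 fell with CoCl2, with a median log2 fold change of 0.11, and 10 rose and 1 fell with OD, with a median of 0.19. In HT-29, 13 of 26 rose and 8 fell with CoCl2, with a median of 0.18, and 11 rose and 11 fell with OD, with a median of 0.066. Over all genes in Caco-2, 31.6% rose and 33.1% fell with CoCl2, and 25.7% and 24.7% with OD. The shares in HT-29 were 40.7% and 42.2% with CoCl2, and 34.7% and 34.0% with OD. In Caco-2 5 were called for CoCl2 and 2 for OD, beside 23.4% and 11.7% of all genes, and in HT-29 8 and 4, beside 41.3% and 17.1%. In Caco-2 all calls of the list were higher. Over all genes there, 1464 were called higher and 2283 lower with CoCl2, and 711 and 1165 with OD. In HT-29 the list had 4 called higher and 4 lower with CoCl2, and 3 and 1 with OD. Over all genes there, 2749 were called higher and 3775 lower with CoCl2, and 1502 and 1197 with OD. GADD45A, a growth arrest and DNA damage gene, rose in Caco-2 from 14.0 ± 0.352 CPM to 85.5 ± 6.44 CPM with CoCl2 and 39.9 ± 7.29 CPM with OD. In HT-29 it rose from 72.0 ± 7.82 to 169.1 ± 4.36 CPM with CoCl2 (log2 fold change 1.23, FDR = 1.53e-16), and with OD it fell to 46.1 ± 1.82 CPM (-0.65, FDR = 9.58e-10), a value named after it was seen.

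PLK2, a polo-like kinase, rose in Caco-2 with CoCl2 from 8.42 ± 1.02 to 26.2 ± 1.10 CPM and fell in HT-29 from 397.3 ± 30.5 to 85.1 ± 2.75 CPM with CoCl2 and 191.2 ± 8.73 CPM with OD. PLK3 of the same family went from 1.64 ± 0.245 to 12.3 ± 3.10 CPM with CoCl2 in Caco-2. SFN, the 14-3-3 sigma protein that arrests cells before mitosis, rose in HT-29 from 34.7 ± 1.25 to 169.7 ± 11.0 CPM with CoCl2 and 101.1 ± 8.87 CPM with OD. BTG2, an antiproliferative gene, and DDB2, a DNA damage recognition gene, fell in HT-29 with CoCl2, from 54.6 ± 0.707 to 19.3 ± 1.16 CPM and from 21.8 ± 0.500 to 9.90 ± 0.924 CPM. With OD, in values likewise named after they were seen, BTG2 fell to 38.8 ± 1.36 CPM and DDB2 rose to 35.8 ± 2.45 CPM (log2 fold change 0.72, FDR = 7.20e-10). PHLDA3, an inhibitor of AKT, rose with OD in HT-29, from 7.86 ± 1.03 to 20.1 ± 1.07 CPM. TNFRSF10B, the death receptor DR5, rose in HT-29 with CoCl2 from 105.6 ± 19.4 to 239.2 ± 6.54 CPM, while FAS, the other death receptor of this set, fell.

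Of 14 regulators and relatives of p53, 13 were tested. In Caco-2, 7 rose and 3 fell with CoCl2, beside 31.6% and 33.1% of all genes, and 7 rose and 1 fell with OD, beside 25.7% and 24.7%. In HT-29, 7 rose and 5 fell with CoCl2, beside 40.7% and 42.2% of all genes, and 5 rose and 5 fell with OD, beside 34.7% and 34.0%. MDM4, the partner of MDM2, rose with CoCl2 in both lines, from 37.6 ± 1.72 to 77.6 ± 6.08 CPM in Caco-2 and from 64.5 ± 1.53 to 143.2 ± 6.44 CPM in HT-29. PPP1R13L, which encodes the p53 inhibitor iASPP, rose with CoCl2 from 24.3 ± 1.46 to 52.0 ± 6.49 CPM in Caco-2 and from 34.6 ± 1.03 to 113.8 ± 5.03 CPM in HT-29, and with OD to 63.6 ± 4.19 CPM in Caco-2. With OD in Caco-2 the p53 relative TP73 rose from 7.56 ± 0.461 to 17.2 ± 1.14 CPM and the checkpoint kinase CHEK1 from 55.2 ± 3.09 to 121.1 ± 2.29 CPM, while the kinase ATR, which acts upstream of CHEK1, fell from 39.0 ± 1.57 to 17.8 ± 2.83 CPM. CDKN2A, whose ARF product restrains MDM2, rose with OD in HT-29, from 51.2 ± 1.89 to 116.6 ± 0.534 CPM.

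**Figure D4:**
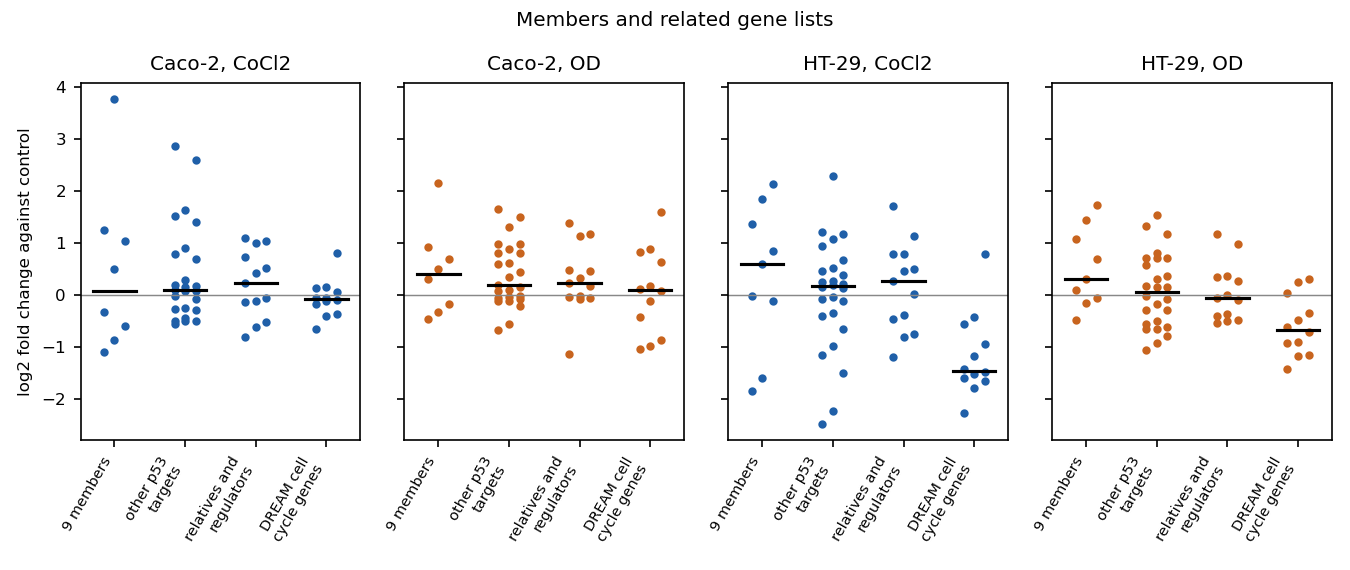
Log2 fold change against control of each tested gene (points) with the median (bar) for the 9 target genes, the 26 other p53 targets, the 14 relatives and regulators and the 12 DREAM cell cycle genes, in 4 panels by line and agent. Target genes scatter on both sides of 0 in every panel, while the DREAM genes have medians of -1.45 and -0.66 in HT-29 and of -0.073 and 0.11 in Caco-2.

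For each target tested in both lines, the genes of most similar profile were listed by Pearson correlation of log2 CPM over the 18 libraries after each line was centred on its own mean, among 10435 genes. The libraries share their treatments, so a high value describes a shared profile and carries no p. The closest to GDF15 were DDIT4 (r = 0.989), MAFF (r = 0.987) and TNFRSF10B (r = 0.983), and the closest to CDKN1A was TMED9 (r = 0.984). BACH1 was closest to MDM2 (r = 0.987) and HIRIP3 (r = 0.978) and FOXM1 (r = 0.974) were among the 3 closest to TP53I3. For BBC3, BAX, TP53INP1 and RRM2B the highest values were 0.926 (IRF7), 0.963 (NUDT22), 0.958 (SEL1L) and 0.909 (PUDP). Among the target genes themselves, BAX and RRM2B were the most alike (r = 0.886), followed by MDM2 and GDF15 (r = 0.849) and CDKN1A and BBC3 (r = 0.849), and MDM2 and BAX were opposed (r = -0.904).

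miRNAs known to be transcribed under p53 were read in the 18 miRNA libraries of the same groups. The mature sequences below (RefSeq) are shown for their seeds, bases 2 to 8, in capitals, through which a miRNA recognises its targets. miR-192 and miR-215 share the seed UGACCUA.
hsa-miR-34a-5p: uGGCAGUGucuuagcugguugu
hsa-miR-34b-5p: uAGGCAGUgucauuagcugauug
hsa-miR-192-5p: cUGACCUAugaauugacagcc
hsa-miR-215-5p: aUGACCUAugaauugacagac
hsa-miR-194-5p: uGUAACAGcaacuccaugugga

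The miRNA libraries held from 34043 to 13092513 counts, and 3 of them, HT-29 CoCl2 replicate 1, HT-29 OD replicate 3 and Caco-2 control replicate 3, held under 1000000. Of the 6 miRNAs listed, miR-34b-5p had 0 counts in every library and miR-34c-5p had 0 to 15, and neither was tested. None of the other 4 was called with either agent in either line, beside 0.936% (CoCl2) and 0.375% (OD) of all miRNAs called in Caco-2, and 4.87% (CoCl2) and 2.92% (OD) called in HT-29. miR-34a-5p, the best known p53-induced miRNA, was at 435.9, 365.6 and 370.1 CPM in Caco-2 control, 369.9, 361.8 and 390.2 CPM with CoCl2 and 310.5, 382.8 and 362.3 CPM with OD. Its groups overlapped, and the log2 fold changes were -0.068 (95% interval -0.29 to 0.15, FDR = 0.733) and -0.16 (-0.37 to 0.063, FDR = 0.467).

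HT-29 libraries held miR-34a-5p at 61.4, 54.9 and 71.4 CPM in control, 56.8, 71.4 and 68.2 CPM with CoCl2 and 70.4, 64.0 and 49.8 CPM with OD, where the lowest CoCl2 and OD libraries rest on 2 and 23 counts. The log2 fold changes were 0.16 (-0.14 to 0.45, FDR = 0.587) and 0.050 (-0.24 to 0.34, FDR = 0.914). Of the 4, miR-215-5p alone passed the test, in HT-29 with CoCl2, beside 4.71% of all miRNAs that passed higher. It rose from 2133, 3105 and 2496 CPM in control to 5197, 3800 and 3831 CPM (log2 fold change 0.69 ± 0.144, FDR = 0.00395), with no overlap. Without the libraries under 1000000 counts the change was 0.58 (FDR = 0.0165). Its seed partner miR-192-5p, at 48888 ± 9364 CPM in HT-29 control and 53033 ± 1593 CPM with CoCl2, changed by 0.12 (-0.14 to 0.38, FDR = 0.651). In Caco-2 both were abundant, miR-192-5p at 268002 ± 6677 CPM and miR-215-5p at 34789 ± 2160 CPM in control, and neither passed with either agent.

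**Figure D5:**
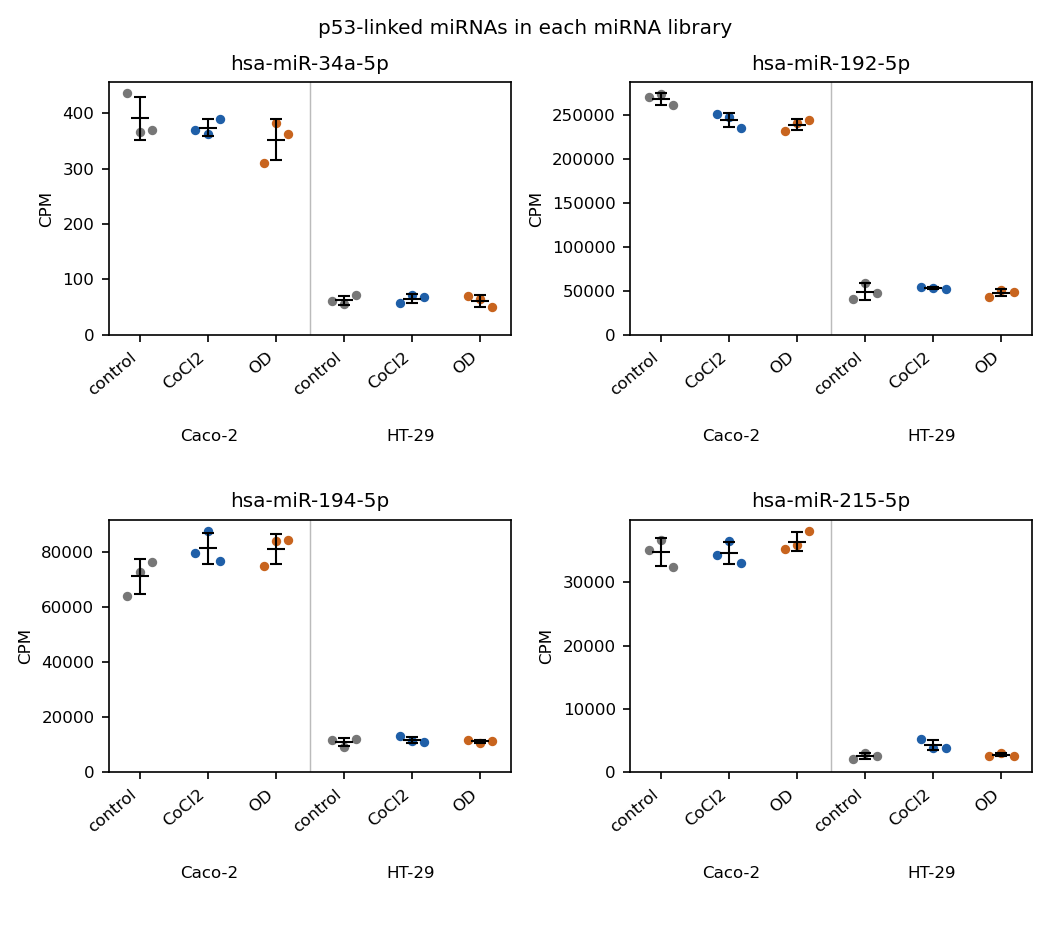
Level in CPM (linear axis from 0, TMM-scaled within each line) of the 4 tested miRNAs in each miRNA library, with 1 point per library, a bar for the mean and whiskers for the SD of 3 libraries. Treated and control groups lie close together within each line. In Caco-2, miR-192-5p with both agents and miR-194-5p with CoCl2 do not overlap control, and none of these passed the test. miR-215-5p in HT-29 with CoCl2, at 4276 ± 798 CPM against 2578 ± 491 CPM in control, is the 1 group that passed the test.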

How the data were processed

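Messenger RNA was sequenced in 18 libraries and miRNA in 18, with 3 biological replicates per group by the labels, and groups were taken from the labels. Per the study's methods and the labels, the authors checked reads with FastQC 0.11.9, trimmed adapters with cutadapt 2.10, aligned single-end reads to GRCh38.p13 with STAR 2.7.5b and counted them on GENCODE genes. The counting tool, its use of strand and the aligner behind the miRNA table are not given in the sources used here, although the labels also list Bowtie 1.1.1 and edgeR 3.30.3. The authors deposited raw counts per gene and per mature miRNA, and log2 tables, of which the mRNA one was checked to hold log2(RPKM + 1) as deposited, scaled within each line. In it some genes are listed at 0 in all libraries of a line. The deposited miRNA log2 table was not used here.

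Counts were tested with edgeR 4.0.16 in R 4.3.3 (TMM, filterByExpr, quasi-likelihood F test, two-sided), each line alone over 9 libraries, or over 18 for comparisons between lines. FDR is the Benjamini-Hochberg adjusted p over all 16034 genes tested in Caco-2, 15812 in HT-29 and 17921 over both, or 534 and 616 miRNAs. The log2 fold changes come from this fit, with an SE from it, and CPM is on TMM-scaled library sizes. DESeq2 1.42.0, limma 3.58.1 and other scalings, filters and sets of libraries served as alternatives. In simulated counts with the sizes of the 9 HT-29 libraries, 85.1% of genes changed 2-fold in the CoCl2 libraries were recovered over 15407 genes, and 34.3% of those changed 1.5-fold. The simulation gave every gene the same spread, changed few genes and had no shift of scale between groups. Its shares therefore do not give the recovery in the real libraries.

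The 9 genes, the lists and the rule for naming genes (up to 3 highest and 3 lowest called per list and comparison, with a mean of at least 100 counts) were chosen with earlier results of these data known. Gene positions are from GENCODE v44 on GRCh38, and sequences are from RefSeq. No sequence is printed for TP53INP1 and RRM2B, and no molecular identifiers are described in the sources used here, so limits from single libraries cover counting error only. Replicate numbers did not pair the libraries.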

Additional observations from a re-analysis of the deposited data

Results flagged for a closer look

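The response of 7 target genes to CoCl2 and of 6 to OD differed between HT-29 and Caco-2 in the interaction test, and these were flagged for a second look. Such differences were common. Over all genes 21.1% responded more positively in HT-29 and 28.6% less with CoCl2, and 20.9% and 22.0% with OD. For CoCl2, the log2 fold change in HT-29 minus that in Caco-2 was 0.49 for CDKN1A, -0.30 for MDM2, -1.74 for GDF15, 0.63 for BAX, -0.59 for TP53I3, 1.58 for TP53INP1 and 0.47 for RRM2B. For OD it was 0.78 for CDKN1A, -0.66 for MDM2, -1.09 for GDF15, 0.62 for BAX, -1.20 for TP53I3 and 1.89 for TP53INP1. The differences for MDM2 with CoCl2 (FDR = 0.0233) and TP53I3 with CoCl2 (FDR = 0.0101) were lost with DESeq2 (-0.20, FDR = 0.200, and -0.49, FDR = 0.0661), and MDM2 was also lost without any 1 of 5 libraries (Caco-2 CoCl2 replicate 2 or 3, Caco-2 control replicate 2, HT-29 CoCl2 replicate 3 or HT-29 control replicate 2; -0.25 to -0.29). With DESeq2 size factors in edgeR the MDM2 difference with CoCl2 was likewise lost (-0.20, FDR = 0.139). With library size alone it was -0.51. With library size alone the differences for CDKN1A (0.29, FDR = 0.0746) and RRM2B (0.27, FDR = 0.107) with CoCl2 did not pass. Line and culture state cannot be told apart in these values.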

How the results depend on the processing

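Of the values recomputed for single genes and miRNAs, 1186 kept their direction and side of the limit for a call, 27 crossed it (8 gained, 19 lost), 1 reversed and 30 that were not called changed sign. The reversal was BBC3 in HT-29 with CoCl2, at -0.032 with library size alone. A value that kept its direction and crossed only the FDR of 0.05 counts as kept here, so such crossings are not in this tally. Dropping the limit on the fold change raised the target genes counted from 4 to 8 (CoCl2) and from 1 to 6 (OD) in Caco-2, and from 3 to 7 (OD) in HT-29. For CoCl2 against OD it raised them from 2 to 6 in Caco-2 and from 3 to 5 in HT-29, for the line differences from 2 to 7 (CoCl2) and from 3 to 6 (OD), and for the controls, FAS included, from 5 to 8. The shares of all genes passing without that limit stand beside the counts of genes that rose or fell above. With limma on the deposited log2 values the called genes were 2 instead of 4 (CoCl2, Caco-2), 3 instead of 5 (CoCl2, HT-29) and 0 instead of 3 (CoCl2 against OD, HT-29), where 7 of the 9 passed an adjusted p under 0.05. Over all genes limma called 1098 instead of 3747, 2520 instead of 6524 and 1455 instead of 4734 in these comparisons, so the loss was not particular to the target genes. The cause was not tested. Leaving out 1 library at a time gave 3 to 4 (CoCl2, Caco-2), 1 to 2 (OD, Caco-2), 5 (CoCl2, HT-29), 2 to 3 (OD, HT-29), 2 to 4 (CoCl2 against OD, HT-29), 2 to 3 (line difference, OD) and 5 to 6 (controls), and the libraries behind them stand beside the genes. Replicate numbers did not pair the mRNA libraries (correlation of deviations -0.055 to 0.068 over 18 pairs), and a replicate block gave the same counts (CoCl2 4, OD 1 for Caco-2; CoCl2 5, OD 3 for HT-29). Depth limited FAS with CoCl2 and the miRNAs of the shallow libraries.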
